A study of Mus musculus with 2 samples.

Results

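Solute carriers (Slc genes) are membrane proteins that move amino acids, sugars, ions, metals and metabolites across membranes, and 65 of the 4197 genes of a table comparing sorted cells of the neonatal mouse cochlear lateral wall belong to them. They were chosen by symbol, as every Slc gene of the table apart from the mitochondrial Slc25a genes and the pigment cell genes Slc45a2, Slc24a5 and Slc7a11. Lateral walls came from mice at postnatal day 0 and were dissociated and sorted. The GFP positive sample is labelled wnt1CRE::Ai3, the GFP negative sample wnt1CRE::Ai4, and the protocol text calls the mice wnt1CRE::EYFP, so all carry Cre recombinase driven by Wnt1, a gene active in the early neural crest. In such mice the reporter marks all cells that descend from Wnt1-expressing cells, which include Schwann cells beside the intermediate cells of the stria vascularis, the pigment cells that the study set against the rest of the lateral wall.

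The name solute carrier says nothing about which membrane holds the protein. Of the 65, 45 are known mainly from the plasma membrane, 9 from inner membranes such as the Golgi, the lysosome or vesicles, and 10 have an uncertain place or substrate. The last, Slc9a3r2, is no carrier but a scaffold protein that binds a sodium-proton exchanger. The 65 fall into 27 numbered families, and the number after Slc gives the family. Families are grouped below by what they mostly carry, although single members depart from their family.

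The stria vascularis secretes endolymph, the potassium-rich fluid around the hair cells, and its intermediate cells lie between marginal and basal cells. Solute carriers of the lateral wall take part in this by recycling potassium and chloride, by exchanging bicarbonate and protons, and by bringing glucose, amino acids and thyroid hormone from the blood. Secondary active carriers draw on the sodium gradient set up by the sodium pump, and others exchange one solute for another. Pigment cells make melanin from tyrosine, a large neutral amino acid that enters cells through carriers.

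The labels list 1 sample per fraction, so differences have no replicate check across mice or sorts and the comparisons below rest on the size of the difference and not on a test. The deposited mean for GFP positive cells is built from the steps of 2 libraries, here called A and B, whose reads were recovered from it. The labels do not name them, and the number in the heading of the mean is not the one in the title of the GFP positive sample. The listed genes held 17120511 reads in library A, 16584559 in library B and 12114107 in the GFP negative library. Every gene of the table had an adjusted p of at most 0.00986 in the authors' deposited table and at least a 2-fold difference, and genes outside the table were not analysed here. Of 321 protein-coding Slc names in the reference annotation that meet the same rule, 256 are not listed, which says nothing of their levels. Values are normalised reads, differences are log2 ratios of the GFP positive mean over the GFP negative value after adding 1 to each, and folds are the plain quotient with an exact 95% interval that covers counting error only.

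In GFP positive cells 23 of the 65 solute carriers were higher than in GFP negative cells and 42 were lower. Among all listed genes 43.6% were higher and 56.4% lower. A difference of 4-fold or more, provided that the higher fraction reached 5 normalised reads, was found for 14 higher and 27 lower carriers, which is 21.5% and 41.5% of them. Over all listed genes these shares were 18.1% higher and 36.9% lower, close to those of the carriers. The median log2 ratio was -1.92 over the carriers and -1.34 over all listed genes. Among the 45 genes known mainly from the plasma membrane 15 were higher and 30 lower, with 10 and 19 at 4-fold or more, and among the 9 of inner membranes 5 were higher and 4 lower. Centring on the median of listed genes that reached 5 in both fractions, which was -1.31, gave 23 carriers 4-fold or more higher and 11 lower, beside 43.6% and 11.1% of all listed genes. The higher counts are then every higher gene, since the 2-fold limit of the table and this shift together exceed 4-fold. They were thus fixed beforehand. Scaling to the total of the listed genes gave 11 carriers higher and 37 lower, beside 14.2% and 43.7% of all listed genes. Centring turned the direction of 1 carrier, Slc16a4, whose log2 ratio was -1.01 as deposited and 0.31 after centring. The other lower carriers had log2 ratios below -1.31, and higher carriers cannot turn with a shift in this direction. In 65 of 65 carriers A and B both differed from the GFP negative library in the same direction. The table lists only genes whose mean differs by at least 2-fold, which makes that agreement likely beforehand. It is therefore no check of replication.

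**Figure D1:**
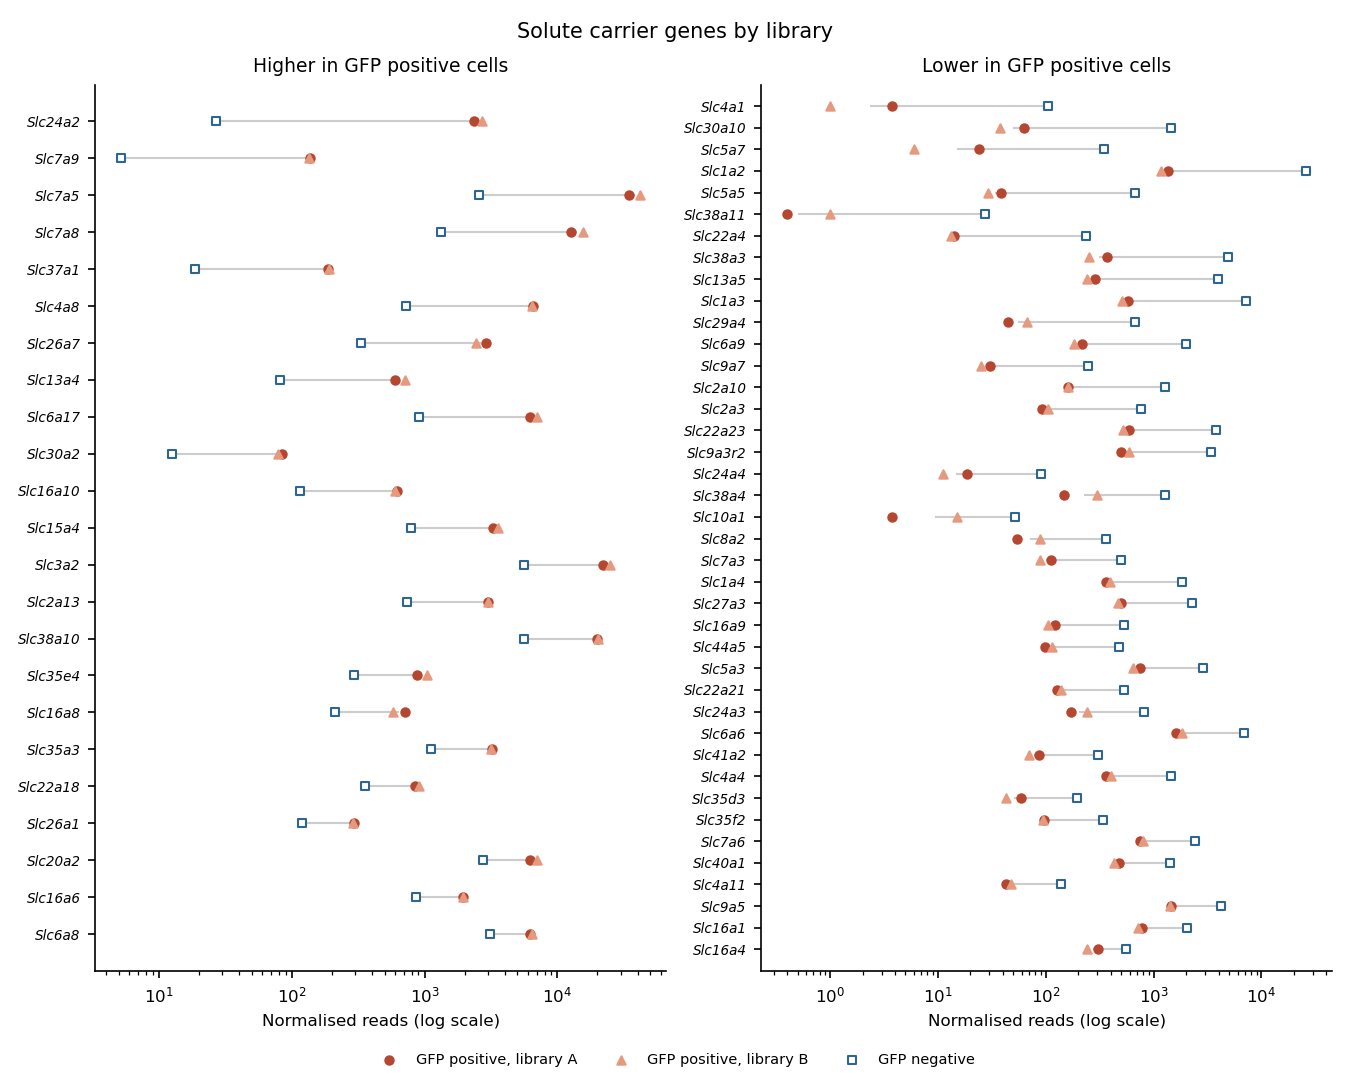
Normalised reads of 63 of the 65 listed solute carriers on a log axis, in GFP positive libraries A (filled circles) and B (triangles) and in the GFP negative library (open squares), with the 23 higher genes on the left and 40 lower ones on the right. The points of A and B lie together for most genes and on the same side of the square for all 63, which the 2-fold limit of the listing makes likely. The value of 0 of Slc38a11 in library A is drawn at the left edge.

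Markers of the cell types in each fraction were read beside the carriers. Pigment and intermediate cell markers were higher for 8 of 8 genes, at a summed 2037153 and 2181578 in A and B, against 3941 in GFP negative cells, and Schwann cell markers for 6 of 6, at 127609 and 128110.1, against 1758. The GFP positive fraction thus held transcripts of both cell types, and the part of either in the higher carriers was not tested. Fibrocyte markers, lower for 6 of 6, stood at 71343 and 72265 in A and B, against 962374, or 7.46% of the GFP negative sum, and cartilage markers, lower for 5 of 5, at 59672 and 51605, against 1106131, or 5.03%. Pericyte genes stood at 6.97% (2 of 3 listed), the endothelial gene Emcn, 1 of 4, at 5.97%, macrophage genes at 16.3% (4 of 4) and erythroid genes at 1.63%. None of 5 marginal cell genes was listed. No listed marker was at 0 in any library. In sorted bulk samples fewer cells of a type and less RNA per cell cannot be told apart.

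The carriers of large neutral amino acids LAT1 and LAT2 and their shared heavy chain were all 4-fold or more higher in GFP positive cells. Slc7a5 encodes LAT1, which exchanges large neutral amino acids such as tyrosine and leucine across the plasma membrane. It stood at 34335 and 41798 normalised reads in GFP positive libraries A and B, against 2547 in the GFP negative library, which is 14.9-fold higher (14.4 to 15.6). Slc7a8 encodes LAT2, a related exchanger whose loss has been tied to age-related hearing loss in mice. Its values were 12652 and 15500 in A and B, against 1319 in GFP negative cells, 10.7-fold higher (10.1 to 11.3). Both genes were somewhat higher in library B than in A, and both libraries lay far above the GFP negative value. Folds in A and B alone were 13.5 and 16.4 for Slc7a5 and 9.59 and 11.8 for Slc7a8. These lay outside the intervals above, so A and B differed beyond counting error. LAT1 and LAT2 work only when bound to a heavy chain, the glycoprotein encoded by Slc3a2, which brings them to the cell surface. Slc3a2 stood at 22021 and 24735 in A and B, against 5631 in GFP negative cells, 4.15-fold higher (4.04 to 4.27). This lay just inside the 4-fold limit, with 3.91-fold in A alone and 4.39-fold in B alone. Scaled to the listed total, its log2 ratio was 1.68, under that limit.

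The heavy chain has other light chains, and the 2 of them that the table lists, Slc7a6 and Slc7a11, were lower. Slc7a6 encodes y+LAT2, which exchanges arginine for glutamine. It stood at 750.2 and 789 in A and B, against 2425 in GFP negative cells, 3.15-fold lower (2.96 to 3.36). Slc7a11, the cystine light chain outside the 65, was 5.78-fold lower (5.18 to 6.46). Levels of different genes can be set side by side only per length, here as normalised reads per kb of annotated exon. On that scale Slc7a5 stood at 9260 and 11272 in A and B, against 687 in GFP negative cells, and Slc3a2 at 6240 and 7009, against 1596. The level of Slc7a5 was thus 1.48 and 1.61 times that of its heavy chain in libraries A and B, and 0.43 times in the GFP negative library. The 4 light chains Slc7a5, Slc7a8, Slc7a6 and Slc7a11 together reached 1.92 and 2.08 times the level of Slc3a2 in A and B, and 0.985 times in GFP negative cells. The lengths are those of all exons of a gene joined together, so a ratio between genes depends on the annotation, while the fold between fractions of the ratio of 1 light chain to Slc3a2 does not.

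**Figure D2:**
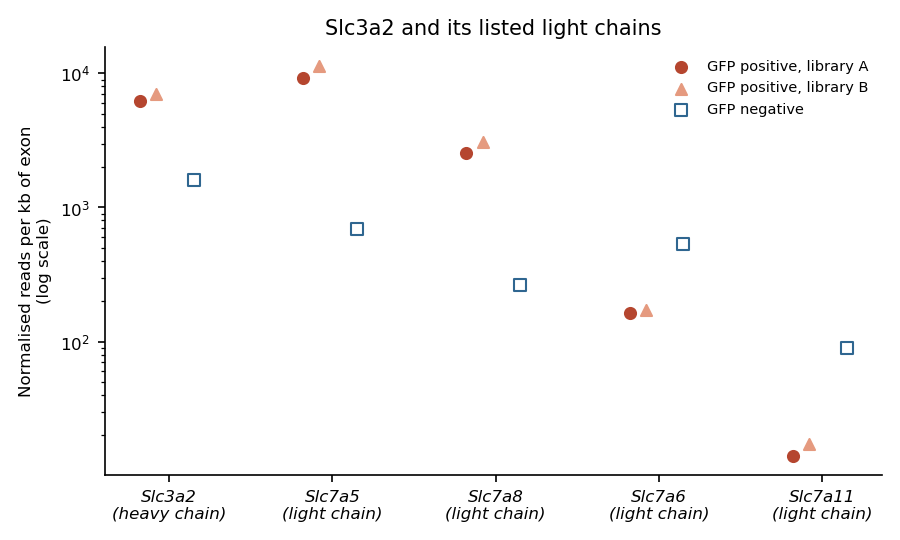
Normalised reads per kb of exon, on a log axis, of the heavy chain gene Slc3a2 and the 4 light chain genes in GFP positive libraries A (filled circles) and B (triangles) and in the GFP negative library (open squares). Slc3a2, Slc7a5 and Slc7a8 lie higher in GFP positive cells, and Slc7a6 and Slc7a11 lie lower.

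Other amino acid carriers were split, and over the 17 genes of this group 7 were higher and 10 lower, with 5 and 8 at 4-fold or more. The group median log2 ratio was -1.97. Slc7a9, the light chain of a cystine and basic amino acid exchanger of kidney and gut, had 138 and 135 in A and B, against 5.22 in GFP negative cells. That is 26.1-fold higher (11.1 to 81.1), a wide interval because the GFP negative library held 5 reads. Slc6a17, a neutral amino acid carrier of synaptic vesicles, stood at 6241 and 7058 in A and B, against 910.5 in GFP negative cells, 7.30-fold higher (6.82 to 7.83). Slc38a10, a member of the sodium-coupled neutral amino acid family, had 19659.7 and 20059.7 in A and B, against 5609 in GFP negative cells, 3.54-fold higher (3.44 to 3.64). Slc6a8 brings creatine into cells. It lay nearest to the 2-fold limit of the table among the higher carriers, at 6241 and 6445 in A and B, against 3099 in GFP negative cells, 2.05-fold higher (1.97 to 2.13).

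The Slc1 family, which holds the glutamate carriers, was lower for all 3 listed genes. Slc1a2 encodes GLT-1, the main glutamate transporter of astrocytes. It stood at 1359.8 and 1159 in A and B, against 25918 in GFP negative cells, 20.6-fold lower (19.8 to 21.4). Slc1a3, or GLAST, which is known from glia and from fibrocytes and supporting cells of the cochlea, had 576 and 505 in A and B, against 7256 in GFP negative cells, 13.4-fold lower (12.6 to 14.3). The third, Slc1a4, a carrier of alanine, serine and cysteine, had a log2 ratio of -2.28. Values of A and B lay within 1.5-fold of each other for these genes, and both were far below the GFP negative value.

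Of the 4 listed Slc38 genes, whose best known members move glutamine and other neutral amino acids with sodium, all but Slc38a10 were lower. Slc38a3, or SNAT3, stood at 368 and 252 in A and B, against 4851 in GFP negative cells, 15.7-fold lower (14.4 to 17.02). Slc38a4, an imprinted gene of liver and placenta, differed between the GFP positive libraries, with 149 in A and 299.7 in B, against 1267 in GFP negative cells. Its log2 ratio was -2.49, and the A over B ratio of 0.497 (0.407 to 0.604) lay outside counting error. Slc38a11 had 1 read over both GFP positive libraries, in B, against 26 reads in the GFP negative library, 53.8-fold lower with a very wide interval (8.84 to 2206). Slc6a9, the glycine transporter GlyT1, was 9.92-fold lower (8.92 to 11.1), with 219 and 183 in A and B, against 1991 in GFP negative cells. On the GRCm38 annotation 27.8% of its exonic length is shared with Ccdc24 on the opposite strand, whose log2 ratio was -1.74, and without strand their reads cannot be separated. Slc6a6, the taurine transporter, had a log2 ratio of -1.97, and Slc7a3, a cationic amino acid carrier, had -2.30.

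Levels per kb show which of the 65 carriers made up most of their summed level in each fraction. In GFP positive cells Slc7a5 alone gave 30.9% of the summed level of the 65 genes, Slc7a5 and Slc3a2 together 50.9%, and the 5 highest, which add Slc38a10, Slc7a8 and Slc6a8, gave 72.4%. In GFP negative cells the sum was spread over more genes. Slc1a2 gave 8.94% of it there, and the 3 highest, Slc1a2, Slc3a2 and Slc9a3r2, gave 21.97%, against 60.2% for the 3 highest in GFP positive cells. Of the 10 highest genes of each fraction 2 were shared, Slc3a2 and Slc38a10. These shares leave out the carriers that are not listed and the 11 listed Slc genes outside the 65. Of those 11, Slc45a2 and Slc25a4 had GFP positive means of 80164 and 62999 normalised reads. Both lay above the 38067 of Slc7a5, before division by length.

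**Figure D3:**
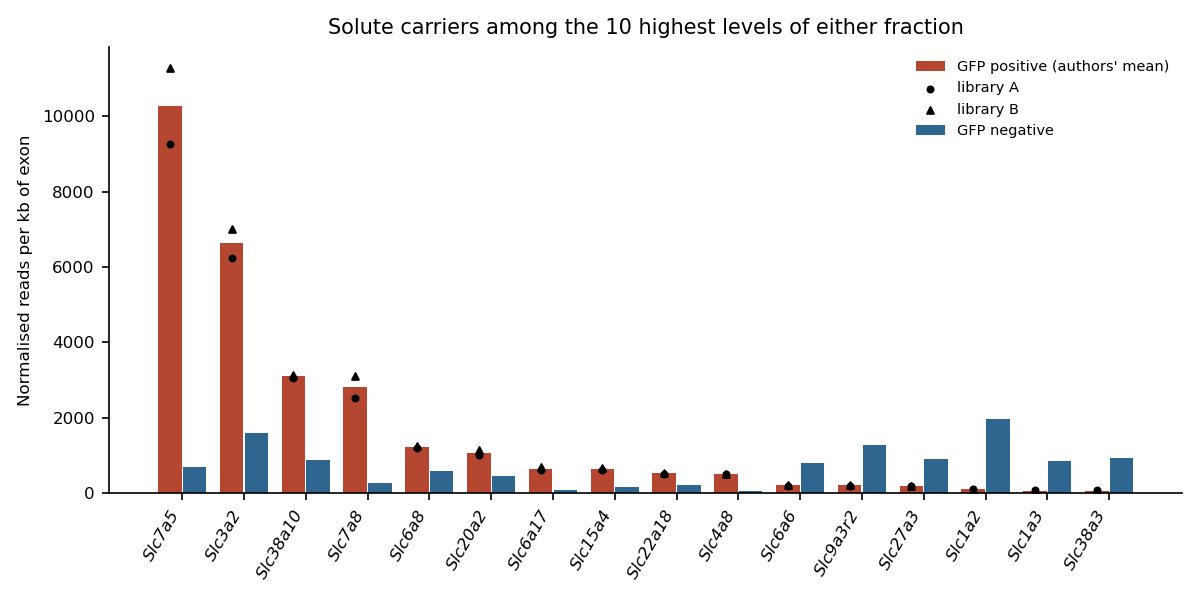
Normalised reads per kb of exon for carriers among the 10 highest of either fraction, 2 of which are left out, with bars for the GFP positive mean and for the GFP negative library and black symbols for libraries A and B. Slc7a5 at 10266 and Slc3a2 at 6625 lead in GFP positive cells, and Slc1a2 at 1974 and Slc3a2 at 1596 lead in GFP negative cells.

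Calcium exchangers held the largest difference among all 65 genes. Slc24a2 encodes NCKX2, an exchanger of cone photoreceptors and neurons that moves calcium out in return for sodium, with potassium leaving alongside the calcium. It stood at 2348 and 2725 in A and B, against 27.1 in GFP negative cells, 93.4-fold higher (63.7 to 143). The other 3 calcium exchangers of the 65 were lower. The table also lists Slc24a5, an Slc24 gene left out of the 65, which was 150-fold higher (125 to 182). Slc24a3, of the same family, had 171 and 239 in A and B, against 819.6 in GFP negative cells, 3.99-fold lower (3.54 to 4.51). Slc24a4 had a log2 ratio of -2.53, which rested on 20 and 11 reads in A and B. Slc8a2, a sodium-calcium exchanger of neurons, had 53.98 and 87.8 in A and B, against 360.2 in GFP negative cells, 5.08-fold lower (4.17 to 6.21).

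Promoters were searched for short motifs, among them those of the pigment cell factor Mitf and of Sox10, whose genes had log2 ratios of 6.11 and 5.68. The letters searched, on both strands, were CATGTG, the core of the M-box, CACGTG, the E-box, and ACAAAG, a core of SOX sites. Each sequence printed here holds 1 match, so no motifs overlap. RefSeq promoters of build GRCm38.p6, running from 250 bases before to 50 bases after the gene start, were found for 50 of the 65 carriers and for 12 of the 14 that were 4-fold or more higher. Of these 12, 1 held CATGTG, 0 held CACGTG and 2 held ACAAAG, against 14.1%, 7.24% and 18.7% of 27025 promoters of the same length and 9.01%, 9.08% and 13.5% of the 3008 promoters found for listed genes. The 3 promoters with a match are printed because they are those of the 4-fold higher carriers that hold any of the motifs, with the motif in capitals, read 5′ to 3′ along the gene. The Slc24a2 promoter lies at chr4:87230491-87230790 on the minus strand, with ACAAAG on the opposite strand 81 bases before the gene start. The Slc7a9 promoter lies at chr7:35448842-35449141 on the plus strand, with the same motif on the opposite strand 123 bases before the start. The Slc6a17 promoter lies at chr3:107500691-107500990 on the minus strand, with CATGTG 185 bases before the start. Of 23 promoters found for carriers 4-fold or more lower, 3 held CATGTG, 2 held CACGTG and 2 held ACAAAG. These matches describe letters in a window and not binding.
Slc24a2: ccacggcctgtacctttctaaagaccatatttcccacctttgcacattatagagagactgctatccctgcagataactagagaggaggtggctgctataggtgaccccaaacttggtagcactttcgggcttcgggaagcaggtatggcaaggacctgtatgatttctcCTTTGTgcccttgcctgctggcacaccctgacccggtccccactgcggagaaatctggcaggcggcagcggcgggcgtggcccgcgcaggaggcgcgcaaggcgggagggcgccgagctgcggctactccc
Slc7a9: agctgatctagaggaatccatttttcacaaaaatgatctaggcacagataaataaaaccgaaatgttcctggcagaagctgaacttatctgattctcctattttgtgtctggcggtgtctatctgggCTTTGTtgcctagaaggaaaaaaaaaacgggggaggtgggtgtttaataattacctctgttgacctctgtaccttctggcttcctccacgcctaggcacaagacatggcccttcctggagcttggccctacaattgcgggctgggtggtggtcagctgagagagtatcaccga
Slc6a17: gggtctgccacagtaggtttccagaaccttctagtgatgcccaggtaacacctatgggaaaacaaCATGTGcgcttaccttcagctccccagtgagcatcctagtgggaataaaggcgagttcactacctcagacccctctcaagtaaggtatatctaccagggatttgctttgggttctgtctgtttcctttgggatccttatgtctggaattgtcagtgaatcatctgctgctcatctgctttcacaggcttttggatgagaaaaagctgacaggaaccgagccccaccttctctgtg

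Bicarbonate and anion exchange genes were 3 higher and 3 lower, with a group median log2 ratio of -0.16 that centring turned to 1.16. Slc4a8, an exchanger that brings sodium and bicarbonate in for chloride, stood at 6589 and 6473 in A and B, against 719 in GFP negative cells, 9.08-fold higher (8.41 to 9.81). Slc26a7, a chloride and bicarbonate carrier known from kidney, stomach and thyroid, had 2879 and 2450 in A and B, against 331 in GFP negative cells, 8.05-fold higher (7.19 to 9.04). Slc26a1, a sulfate and oxalate exchanger of the same family, had a log2 ratio of 1.28. For all 3 genes the values of A and B lay within 1.5-fold of each other and above the GFP negative value. The A over B ratio of Slc26a7, 1.18 (1.11 to 1.24), lay outside counting error.

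The 3 lower members of this group were all Slc4 genes. Slc4a4, the sodium-bicarbonate cotransporter NBCe1, which is known from spiral ligament fibrocytes among many tissues, had 366 and 399.5 in A and B, against 1465 in GFP negative cells, 3.83-fold lower (3.51 to 4.18). Slc4a11, a transporter of debated substrate whose loss causes hearing loss in mice and people, stood at 42.8 and 47.4 in A and B, against 138 in GFP negative cells, 3.05-fold lower (2.33 to 4.03). Slc4a1 encodes band 3, the anion exchanger of red blood cells, and had the lowest log2 ratio of the 65 genes, -4.97. It had 4 reads in A and 1 in B, against 100 in the GFP negative library, 44.1-fold lower (18.3 to 139). Erythroid markers moved with it, with 3 of 4 listed and all lower, at a summed 1363 and 979 in A and B, against 71947 in GFP negative cells. Their part in the Slc4a1 value was not tested.

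The group of sodium-proton exchange held 3 genes, all lower, of which Slc9a5, of neurons, and Slc9a7, of the trans-Golgi, encode exchangers. Slc9a5 stood at 1443 and 1423 in A and B, against 4182 in GFP negative cells, 2.92-fold lower (2.78 to 3.06), and Slc9a7 had a log2 ratio of -3.09. The scaffold Slc9a3r2 stood at 495 and 591 in A and B, against 3385 in GFP negative cells, 6.23-fold lower (5.82 to 6.68). A and B lay within 1.5-fold of each other for these 3 genes, below the GFP negative value in each case.

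Monocarboxylate carriers of the Slc16 family were split, with 3 of 7 higher and 4 lower. Slc16a10, or TAT1, which carries aromatic amino acids such as tyrosine rather than lactate, had 625 and 599 in A and B, against 116 in GFP negative cells, 5.28-fold higher (4.35 to 6.47). Slc16a8, the lactate carrier MCT3 of the retinal pigment epithelium, stood at 707 and 577 in A and B, against 211 in GFP negative cells, 3.05-fold higher (2.62 to 3.55). Slc16a6, or MCT7, which exports ketone bodies from liver in zebrafish, had a log2 ratio of 1.17, and 21.5% of its exonic length is shared with Amz2 on the opposite strand. On the lower side, Slc16a1, the widespread lactate carrier MCT1, had 788 and 717 in A and B, against 2046 in GFP negative cells, 2.72-fold lower (2.54 to 2.91). Slc16a4, an orphan member, was 2.01-fold lower (1.79 to 2.27) and nearest to the 2-fold limit of the table on that side, and Slc16a9 had a log2 ratio of -2.19.

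Members of the Slc13 family, which carry sulfate or carboxylates with sodium, lay on opposite sides. Slc13a4, a sulfate carrier of placenta and brain, had 599 and 708 in A and B, against 82.5 in GFP negative cells, 7.93-fold higher (6.31 to 10.1). Slc13a5, the citrate carrier NaCT, had 285 and 242 in A and B, against 3967 in GFP negative cells, 15.1-fold lower (13.8 to 16.5). Together the 9 Slc13 and Slc16 genes had a median log2 ratio of -1.01, which centring turned to 0.31. Slc20a2, the sodium-phosphate cotransporter PiT2, stood at 6209 and 7026 in A and B, against 2735 in GFP negative cells, 2.42-fold higher (2.32 to 2.52).

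Sugar and inositol carriers and their relatives were lower for 5 of 7 genes, all 7 by 4-fold or more in one direction or the other. Of all listed genes 18.1% were higher and 36.9% lower by that much. The group median log2 ratio was -2.92. The facilitative glucose carrier gene Slc2a3, or GLUT3, known from neurons, had 93.1 and 106 in A and B, against 758 in GFP negative cells, 7.62-fold lower (6.52 to 8.94). Slc2a10, or GLUT10, mutated in arterial tortuosity syndrome, had 159.2 and 159.4 in A and B, against 1263 in GFP negative cells, 7.93-fold lower (7.02 to 8.99). The higher genes were Slc2a13, a proton-coupled inositol carrier, with 2997 and 3001 in A and B, against 737 in GFP negative cells, and Slc37a1, a glucose 6-phosphate carrier of the endoplasmic reticulum, with 188.01 and 189.7, against 18.8. Slc2a13 was 4.07-fold higher (3.76 to 4.40), just inside the 4-fold limit, and Slc37a1 10.05-fold (6.27 to 17.1).

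The Slc5 genes of this group were lower for 3 of 3 members, of which only Slc5a3 carries inositol. Slc5a3, which cells use to take up inositol under osmotic stress, stood at 742 and 644 in A and B, against 2863 in GFP negative cells, 4.13-fold lower (3.88 to 4.41). Slc5a5 encodes the sodium-iodide symporter of the thyroid, and had 38.2 and 29.3 in A and B, against 675 in GFP negative cells, 20.01-fold lower (15.6 to 25.99). Slc5a7, the choline carrier of cholinergic neurons, had 24.2 in A and 6.05 in B, against 348 in GFP negative cells, 22.99-fold lower (15.97 to 34.2). Its A over B ratio of 3.997 (1.61 to 11.9) rested on 26 and 6 reads, and both libraries stayed far below the GFP negative value.

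**Figure D4:**
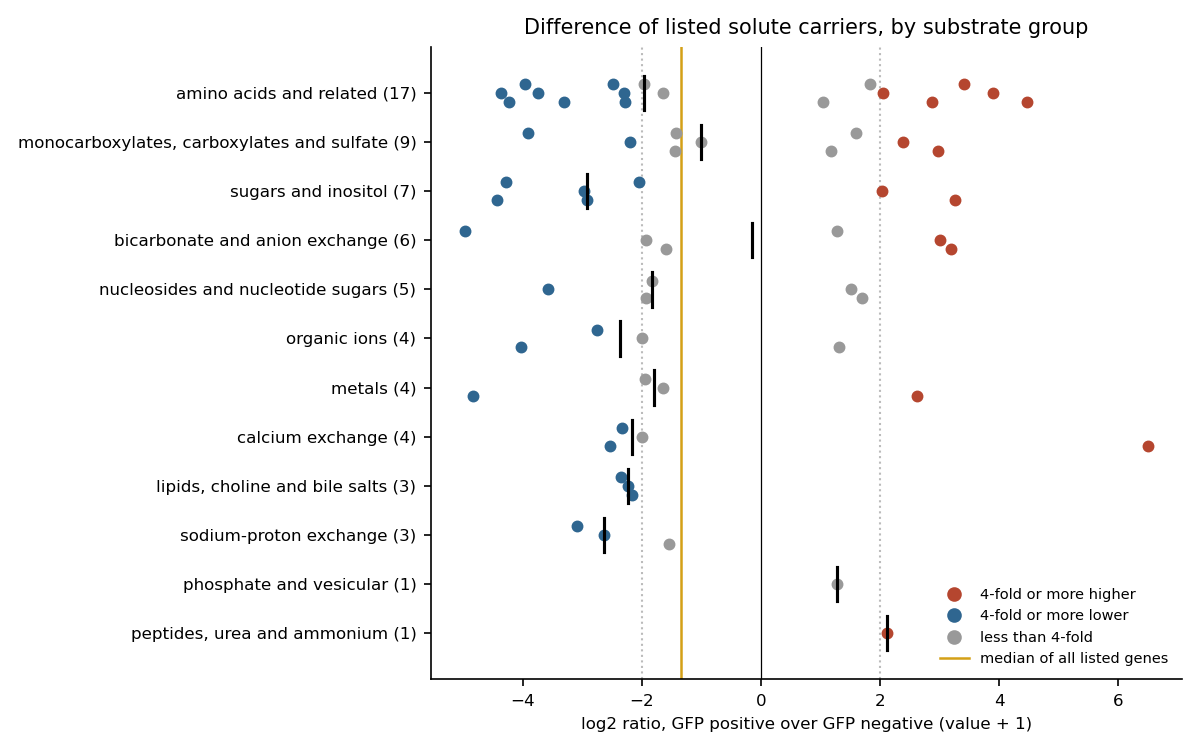
Log2 ratio of 64 listed solute carriers, GFP positive over GFP negative after adding 1, by substrate group with the number of genes in brackets. Points are genes, black bars group medians, dotted lines the 4-fold limit and the yellow line the median of -1.34 of all listed genes, and most groups have genes on both sides of 0 while the single gene of largest difference is Slc24a2 at 6.49.

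Metal carriers were lower for 3 of 4 genes. Slc30a10, a manganese exporter, had 62.4 and 37.3 in A and B, against 1450.3 in GFP negative cells, 29.1-fold lower (23.8 to 35.9). Slc40a1, or ferroportin, the iron exporter, had 474 and 434 in A and B, against 1428 in GFP negative cells, 3.15-fold lower (2.89 to 3.42), and Slc41a2, a magnesium carrier, had a log2 ratio of -1.96. The higher gene was Slc30a2, a vesicular zinc carrier known from the mammary gland, with 84.7 and 78.7 in A and B, against 12.5 in GFP negative cells. Its 6.52-fold difference (3.64 to 12.9) rested on 12 GFP negative reads.

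Organic ion carriers of the Slc22 family were lower for 3 of 4 genes. Slc22a4, or OCTN1, the carrier of the antioxidant ergothioneine, had 13.96 and 13.1 in A and B, against 237 in GFP negative cells, 17.5-fold lower (11.8 to 26.9). Slc22a23, an orphan member, stood at 592 and 523 in A and B, against 3764 in GFP negative cells, 6.75-fold lower (6.32 to 7.22). Slc22a21, a carnitine carrier, was 4.02-fold lower (3.46 to 4.67) as a plain quotient and fell just outside the 4-fold limit once 1 had been added to each value. Slc22a18, an imprinted member of uncertain substrate, had 845 and 915 in A and B, against 355 in GFP negative cells, 2.48-fold higher (2.21 to 2.79).

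Among carriers of nucleosides and nucleotide sugars, Slc29a4, which takes up monoamines and adenosine, had 44.7 and 66.6 in A and B, against 676 in GFP negative cells, 12.1-fold lower (9.94 to 14.95). The Golgi carrier Slc35a3, for UDP-N-acetylglucosamine, stood at 3225 and 3167 in A and B, against 1117 in GFP negative cells, 2.86-fold higher (2.68 to 3.05). The orphan Slc35e4 had a log2 ratio of 1.70. Slc35f2 and Slc35d3 had -1.83 and -1.92, the second a gene of platelet granule formation in mice. Slc15a4, a lysosomal carrier of histidine and peptides, stood at 3245 and 3559.5 in A and B, against 789 in GFP negative cells, 4.31-fold higher (3.998 to 4.65).

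The 3 genes of the lipid, choline and bile acid group were all lower by 4-fold or more, as were 36.9% of all listed genes. Slc27a3, an acyl-CoA synthetase related to fatty acid carriers, stood at 499 and 467 in A and B, against 2286 in GFP negative cells, 4.73-fold lower (4.39 to 5.10). The choline carrier relative Slc44a5 had a log2 ratio of -2.17, and the bile acid carrier Slc10a1 had -2.35. Slc10a1 rested on 4 and 15 reads in A and B, against 50, and its adjusted p in the authors' deposited table was 0.00777.

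Families with several listed genes were often divided. Of 15 families with at least 2 listed genes, 11 had genes on both sides. The exceptions were Slc1, Slc5 and Slc9, lower for every listed gene, and Slc26, higher for both. With 43.6% of all listed genes higher and 56.4% lower, unrelated genes would often be mixed too. Whether families were more or less divided than such genes was not tested. Libraries A and B differed by 1.5-fold or less for 57 of the 65 genes. The other 8 had at most 457 reads over both libraries and were lower in GFP positive cells.

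A list of 20 carriers discussed for the lateral wall, written down with earlier results of this table known, had 7 listed genes, 1 higher and 6 lower. All listed genes were 43.6% higher and 56.4% lower, and whether the 7 depart from these shares was not tested. Of the 7, the higher one was Slc7a8, and the lower ones included Slc4a4, Slc4a11, Slc16a1, Slc1a3 and Slc22a4. The 13 that were not listed include Slc12a2, Slc26a4, the anion exchanger of spindle and root cells, and Slc2a1, the main glucose carrier of the blood-tissue barrier.

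Listed genes whose proteins work with solute carriers lay on both sides. Of the sodium pump, the subunits Atp1b1 and Atp1b3 had log2 ratios of 1.94 and 2.54. Carbonic anhydrases, which supply bicarbonate, were listed for 3 of 8 names. Car14 was 3.34-fold higher (3.25 to 3.42), Car3 had a log2 ratio of -3.90, and Car8, which lacks enzyme activity, had 7.80.

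Organic anion transporters of the Slco family, relatives under another name, were lower by 4-fold or more for all 7 listed genes. The share of all listed genes lower by 4-fold or more was 36.9%. Both are without centring, which would bring some of the 7 under the limit. Slco3a1 had the smallest difference of the 7, 4.30-fold lower (4.06 to 4.56). The thyroid hormone carrier Slco1c1 had 44.7 and 45.4 in A and B, against 1050.4 in GFP negative cells, 23.3-fold lower (18.8 to 29.2). Among 8 other genes of metal transport 3 were listed. The copper pump Atp7a, which supplies tyrosinase with copper, was 4.60-fold higher (4.39 to 4.82), and the metal reductases Steap2 and Steap3 had log2 ratios of -1.83 and -1.53. None of the 3 ancillary glycoproteins of monocarboxylate carriers and none of the 6 kinases of cation-chloride cotransport was listed.

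The 42 lower carriers can be read on the scale used for the marker genes. The GFP positive mean was under 4% of the GFP negative value for 3 of them, Slc38a11, Slc30a10 and Slc4a1. It lay between 4% and 6% for Slc22a4, Slc5a5, Slc1a2 and Slc5a7, and between 6% and 10% for Slc29a4, Slc1a3, Slc13a5 and Slc38a3. A further 17 lay between 10% and 25% and 14 between 25% and 50%. The part of fibrocyte, cartilage or vessel transcripts in these values was not tested.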

How the data were processed

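RNA of 1 GFP positive and 1 GFP negative sorted sample was sequenced from TruSeq libraries and aligned with STAR to mm9, per the submitters' processing notes and the labels' protocols. Neither the counting tool, its use of strand and the annotation nor the authors' test is given in the sources used here. Per the file headers, the authors deposited a normalised signal for the GFP negative library, a mean signal for GFP positive cells, their ratio, the log2 of that ratio, and p-values before and after adjustment.

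The deposited signal is read counts divided by a size factor. For the GFP negative library 100% of values were whole reads within 1e-06 reads (size factor 0.958). For the means, 1 pair of whole numbers fitted 100% of values within a relative tolerance of 1e-13 (size factors 1.07 and 0.991), and 0.0238% of slightly altered means had one.

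Differences used a pseudocount of 1, a limit of 4-fold and a value of at least 5. Intervals are Clopper-Pearson 95% intervals from the recovered reads. Exon lengths and overlaps came from GENCODE M21 (GRCm38), in which 65 of 65 members were found. As an alternative, the quasi-likelihood test of edgeR 4.0.16 on the recovered reads of the 3 libraries gave an adjusted p under 0.05 for 4197 of the 4197 genes, 1831 higher and 2366 lower. It compares these libraries and not the conditions, and since the table lists only genes past the authors' own limits, this outcome says nothing of the members. Members and lists were chosen with earlier results of these data known. The values given in full are, by rule, those of the 10 largest differences in each direction, of the most abundant members of each group, of members that go against most of their family and of the lateral wall list, with the others by log2 ratio. Values beyond this were added after they were seen. The authors' annotation is not known, so lengths are approximate. A few genes covered by this rule are left out of the text, while the counts and medians include all 65 members.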

Additional observations from a re-analysis of the deposited data

How the results depend on the processing

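Counts of carriers 4-fold or more different depended on the scaling and on the limit. Centring on the median listed gene gave 23 higher and 11 lower, beside 43.6% and 11.1% of all listed genes, and a limit of 8-fold gave 7 and 13, beside 9.41% and 16.8%. The higher counts after centring hold every higher gene, which the 2-fold listing and the size of the shift fix beforehand. With edgeR's quasi-likelihood test at an adjusted p of 0.05, 23 higher and 42 lower members passed, as did every listed gene, which the listing itself fixes. The other settings stayed within 1.5 times of 14 higher and 27 lower, and library A or B alone gave 13 to 14 higher and 28 to 29 lower. The median over members was -0.61 after centring.

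Group medians moved as well, since centring and scaling shift all genes nearly alike. For amino acids, -1.97 became -1.82 with a pseudocount of 10, -1.81 with a value of at least 100, -2.34 when scaled to the listed total, -0.66 after centring and -2.07 to -1.88 with 1 library. For bicarbonate and anion exchange, scaling gave -0.52 and centring reversed the sign to 1.16. For monocarboxylates, carboxylates and sulfate, scaling gave -1.37, centring reversed the sign to 0.31, and single libraries gave -1.20 to -0.84. Scaling and centring gave -2.19 and -0.51 for nucleosides and nucleotide sugars and -3.28 and -1.60 for sugars and inositol. Slc16a4 changed sign after centring, and since every listed gene differs by at least 2-fold, the kept sign of the others is no sign of stability. The setting with plasma membrane carriers alone was added after the table had been seen. No paired analysis was possible because each fraction has 1 labelled sample. Depth limits genes with few reads: 3 higher carriers had under 20 GFP negative reads and 3 lower ones under 20 GFP positive reads.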
